A study of Mus musculus with 15 samples.

Results

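Transcripts of 40 cell cycle and DNA replication genes were followed in mouse liver, out of 26839 genes listed in the 3 deposited tables. The 40 genes were chosen by symbol, and each symbol matched 1 gene in each table. By role they were divided into 26 mitotic genes, which act in mitotic entry, spindle assembly, chromosome segregation and cytokinesis or mark dividing cells, 12 replication genes, which make nucleotides or unwind and copy DNA, and Stmn1 and Hmgb2, which belong to neither set. The replication set held the 9 genes of the Mcm, Pcna and Rrm families (Mcm2 to Mcm7, Pcna, Rrm1 and Rrm2) and Tyms, Tk1 and Cdc45.

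Livers of male C57BL/6J mice were profiled by mRNA sequencing in 5 groups of 3 libraries. Activin A NASH livers came from mice given an AAV vector that expressed Activin A from the TBG promoter, a hepatocyte promoter, and kept on the FPC diet with sugar water, a model of nonalcoholic steatohepatitis (NASH), for 16 weeks. GFP NASH livers carried the same promoter with GFP on the same diet, and GFP chow livers carried the GFP vector in mice fed standard chow for 16 weeks. Gpnmb hairpin NASH livers and scramble NASH livers carried an AAV8 vector in which the H1 promoter drove a hairpin against Gpnmb or a scrambled hairpin, and were fed as the other NASH mice; unlike the TBG promoter, the H1 promoter is active in many cell types. All 15 libraries therefore came from livers that carried a vector, and no liver without a vector was measured. The labels number the libraries of each group without stating whether each is its own animal, and the p-values below measure only the spread between these libraries, which may in part be technical.

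A dividing cell first builds nucleotides and loads the MCM helicase, then copies its DNA around the sliding clamp PCNA, and only then makes the cyclins, kinases and spindle proteins of mitosis. Many mitotic genes are held down by the DREAM and MuvB complexes, which bind the cell cycle genes homology region (CHR), and are activated with the CCAAT-binding factor NF-Y, while many replication genes answer to E2F factors. Adult hepatocytes are mostly quiescent. In injured liver, hepatocytes, bile duct cells, macrophages and other cells can all enter the cycle, and a whole-liver library does not tell these cells apart.

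Promoters are shown for the 3 mitotic and the 3 replication genes, among those called and with a window, whose p-values over the 3 main comparisons had the smallest product, because they let these motifs be read in place. Sequences are from RefSeq on GRCm38.p6 and cover the 250 bases before the annotated transcription start, except for Tk1. For Tk1 the 172 bases outside the gene span of the deposited tables are shown, and the 78 bases nearest the start are left out. Capitals mark CHR elements (TTTGAA or TTCGAA) and CCAAT boxes on either strand, and no base of these 6 promoters lies in more than 1 match.
Mki67, chr7:135716380-135716629, minus strand: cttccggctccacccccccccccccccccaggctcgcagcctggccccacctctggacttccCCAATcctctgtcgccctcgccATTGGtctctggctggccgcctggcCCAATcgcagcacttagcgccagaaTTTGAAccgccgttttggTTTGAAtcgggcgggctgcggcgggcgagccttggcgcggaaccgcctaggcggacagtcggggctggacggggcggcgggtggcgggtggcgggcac
Cdc20, chr4:118437344-118437593, minus strand: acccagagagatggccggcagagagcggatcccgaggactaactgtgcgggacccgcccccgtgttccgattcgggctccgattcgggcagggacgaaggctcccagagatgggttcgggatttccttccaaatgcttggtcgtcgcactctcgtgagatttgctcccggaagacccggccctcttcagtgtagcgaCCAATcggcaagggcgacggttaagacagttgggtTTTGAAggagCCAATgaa
Top2a, chr11:99024190-99024439, minus strand: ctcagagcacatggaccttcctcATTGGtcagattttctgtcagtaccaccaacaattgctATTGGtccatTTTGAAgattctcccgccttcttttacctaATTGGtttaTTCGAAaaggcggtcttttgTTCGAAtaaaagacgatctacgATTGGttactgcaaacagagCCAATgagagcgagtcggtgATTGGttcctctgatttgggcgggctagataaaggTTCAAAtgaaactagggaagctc
Tk1, chr11:117826093-117826264, minus strand: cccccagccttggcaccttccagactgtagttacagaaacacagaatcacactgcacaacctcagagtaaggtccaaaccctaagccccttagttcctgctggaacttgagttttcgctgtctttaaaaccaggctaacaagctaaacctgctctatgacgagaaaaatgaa
Mcm3, chr1:20820313-20820562, minus strand: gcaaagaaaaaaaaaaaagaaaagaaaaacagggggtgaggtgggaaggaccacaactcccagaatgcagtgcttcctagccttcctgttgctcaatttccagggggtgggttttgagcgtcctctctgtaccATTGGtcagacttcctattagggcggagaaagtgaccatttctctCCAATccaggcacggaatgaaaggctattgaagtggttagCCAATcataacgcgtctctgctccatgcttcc
Mcm2, chr6:88898781-88899030, minus strand: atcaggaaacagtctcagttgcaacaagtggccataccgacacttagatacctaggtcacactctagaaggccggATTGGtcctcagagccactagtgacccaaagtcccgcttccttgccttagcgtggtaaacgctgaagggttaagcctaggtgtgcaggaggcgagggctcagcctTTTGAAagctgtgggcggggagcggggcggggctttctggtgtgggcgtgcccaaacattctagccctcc

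Mki67, which encodes the proliferation marker Ki-67, had 2 CHR elements and 3 CCAAT boxes in its window. Top2a, which encodes the topoisomerase that untangles chromosomes, had 4 and 6, and Cdc20, an activator of the anaphase-promoting complex, had 1 and 2. Among the replication genes, Mcm2 had 1 of each, Mcm3 had 3 CCAAT boxes and no CHR element, and no match was found in the 250 bases before Tk1. Windows were found for 33 of the 40 genes. A CHR element lay in 47.8% of 23 windows of mitotic genes, in 25% of 12 windows of replication genes and in 17.1% of 32851 windows of the same length over all genes. CCAAT boxes lay in 91.3% of the mitotic and 83.3% of the replication windows, against 33.8% of all windows. An E2F site, searched on both strands as TTTCCCGC, TTTGGCGC, TTTCGCGC or TTTGCCGC, lay in 4.35% of the mitotic windows and in 25% of the replication windows, against 1.86% of all windows. These matches describe letters only, and no factor's binding was measured.

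**Figure D1:**
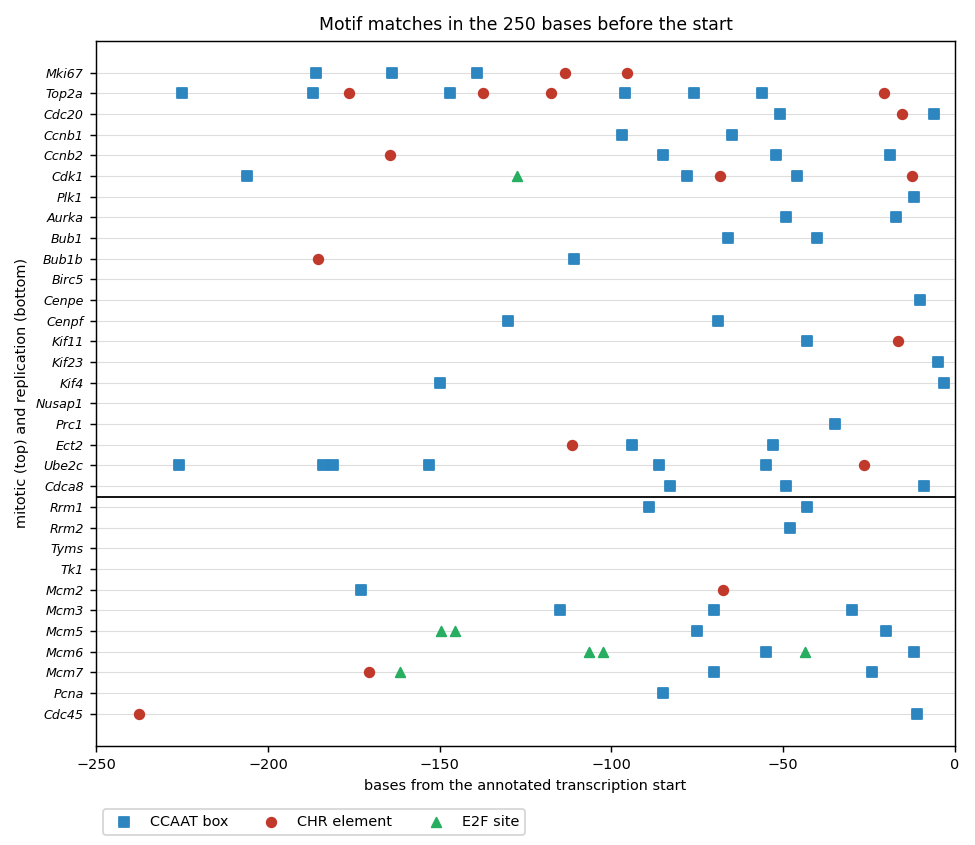
Positions of CCAAT boxes (squares), CHR elements (circles) and E2F sites (triangles) in the 250 bases before the annotated transcription start of each gene with a window, mitotic genes above the line and replication genes below it; the x axis is the distance from the start in bases. Of the 44 CCAAT boxes of the mitotic genes, 34 lay in the last 150 bases before the start.

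Total counts ran from 15276879 to 23467867 per library. The hairpin's target Gpnmb stood at 1.47, 1.27 and 3.32 counts per 1000000 counts (CPM) in Gpnmb hairpin NASH livers, against 25.9, 35.8 and 32.4 CPM in scramble NASH livers. Inhba, which encodes the subunit of Activin A, stood at 25.7, 23.9 and 25.2 CPM in Activin A NASH livers, against 8.11, 7.92 and 8.12 CPM in GFP NASH livers. Both targeted genes moved in the direction their labels give, and none of the 11 hepatocyte markers listed was at 0 in any group. Each also differed in the other comparison. Gpnmb stood at 5.68, 3.37 and 2.96 CPM in Activin A NASH livers, against 40.8, 26.1 and 24.8 CPM in GFP NASH livers. Inhba stood at 10.5, 12.1 and 8.71 CPM in Gpnmb hairpin NASH livers, against 4.71, 5.94 and 5.80 CPM in scramble NASH livers. GFP NASH library 1 had the highest level of the 3 GFP NASH libraries for 18 of 26 mitotic and 9 of 12 replication genes, and GFP NASH library 3 had the lowest for 20 of 26 and 11 of 12. Both stand in the diet and the Activin A comparison, which share the 3 GFP NASH libraries, so results are also given without single libraries where that moved them.

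The cell cycle genes were low transcripts in these livers. Mean counts per library ran from 9.73 to 118 for the mitotic genes, with a median of 27, and from 31.2 to 495 for the replication genes. Per kilobase of gene length, mean levels over the 15 libraries lay between 0.0621 CPM for Cenpf and 1.51 CPM for Aurka among the mitotic genes, with a median of 0.339 CPM. They lay between 0.477 CPM for Cdc45 and 11 CPM for Pcna among the replication genes, with a median of 1.77 CPM. Stmn1 reached 3.96 and Hmgb2 1.72 CPM per kilobase.

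**Figure D2:**
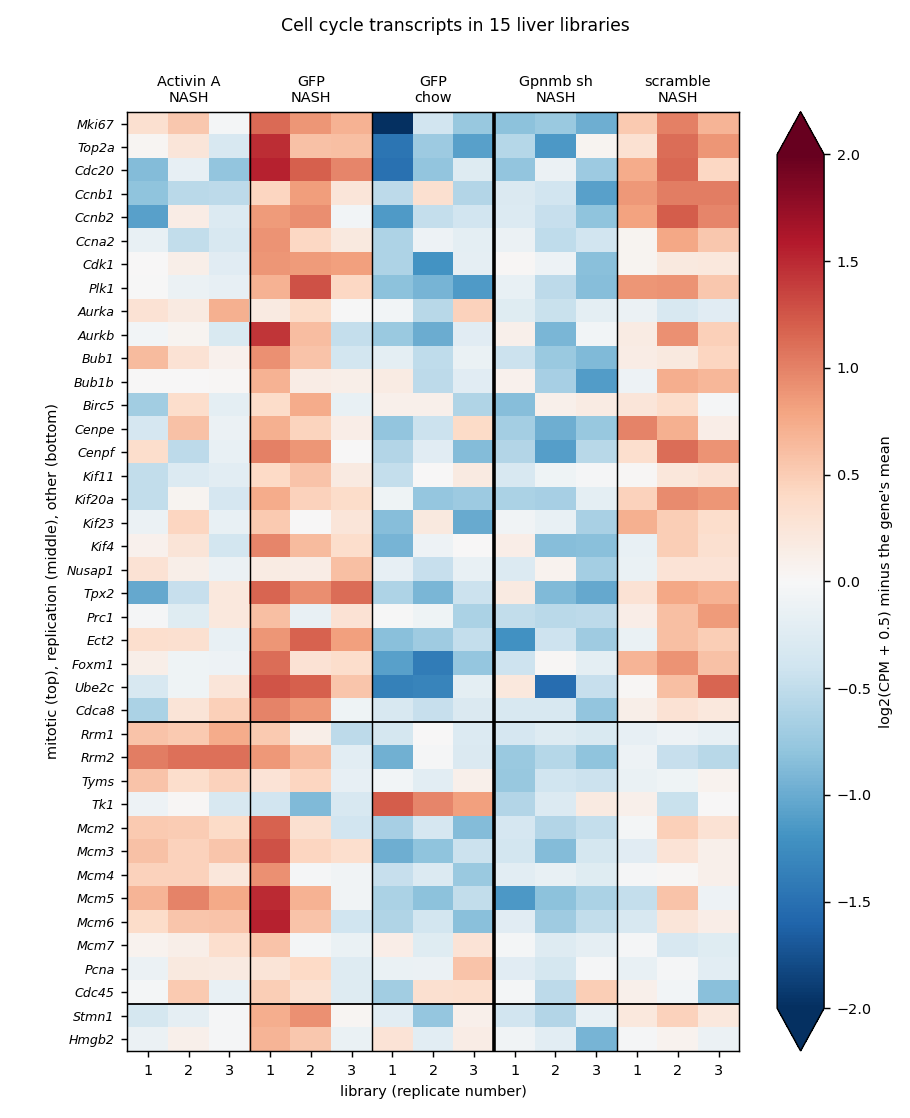
Levels of the 40 genes in each of the 15 libraries, as log2(CPM + 0.5) minus the mean of the gene over all libraries (red above, blue below); columns are libraries by group and replicate number, rows are mitotic genes, replication genes and the other 2 genes from top to bottom. Most mitotic rows are red in GFP NASH and scramble NASH livers and pale or blue in the other groups, whereas Rrm2 is reddest in Activin A NASH livers and Tk1 in GFP chow livers.

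Summed over the 26 mitotic genes, the level was 35.9, 42.7 and 36.8 CPM in Activin A NASH livers, 82.1, 69.5 and 55.0 CPM in GFP NASH livers and 20, 24.2 and 27.9 CPM in GFP chow livers. The mitotic sum was 27.1, 23.6 and 23.2 CPM in Gpnmb hairpin NASH livers, against 50.3, 69.6 and 61.1 CPM in scramble NASH livers. On these sums both NASH control groups lay above all other libraries, and Activin A NASH livers lay between GFP NASH and GFP chow livers. Summed over the 12 replication genes, the level was 145, 154 and 152 CPM in Activin A NASH livers, 186, 134 and 99.1 CPM in GFP NASH livers and 121, 121 and 132 CPM in GFP chow livers. The corresponding values were 90.8, 87.6 and 102 CPM in Gpnmb hairpin NASH livers, against 109, 113 and 110 CPM in scramble NASH livers. For the replication sum the Activin A NASH values lay within the span of the GFP NASH libraries.

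The ratio of the 2 sums separated the groups in another way. For each 100 CPM of replication transcripts there were 24.8, 27.7 and 24.2 CPM of mitotic transcripts in Activin A NASH livers, 44.1, 51.9 and 55.5 in GFP NASH livers and 16.5, 20 and 21.1 in GFP chow livers. The ratio was 29.8, 26.9 and 22.7 in Gpnmb hairpin NASH livers, against 46.1, 61.6 and 55.5 in scramble NASH livers. The 3 GFP NASH libraries, which spread widely in each sum, stayed above every Activin A and chow library in their ratio. With the 9 genes of the Mcm, Pcna and Rrm families alone, the mean ratio was 31.2 ± 2.78 in Activin A NASH livers, 60.8 ± 9.95 in GFP NASH livers and 30 ± 1.91 in GFP chow livers. It was 34.2 ± 3.0 in Gpnmb hairpin NASH livers and 69.7 ± 7.45 in scramble NASH livers (SD, n = 3 libraries each). Tk1 made up much of the chow replication sum: without it the sum averaged 134 ± 5.29 CPM in Activin A NASH livers, 127 ± 43.7 CPM in GFP NASH livers and 87.8 ± 10.9 CPM in GFP chow livers (SD, n = 3). These sums and ratios are descriptions with no test. In whole liver, fewer cells of a kind and less RNA per cell cannot be told apart.

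**Figure D3:**
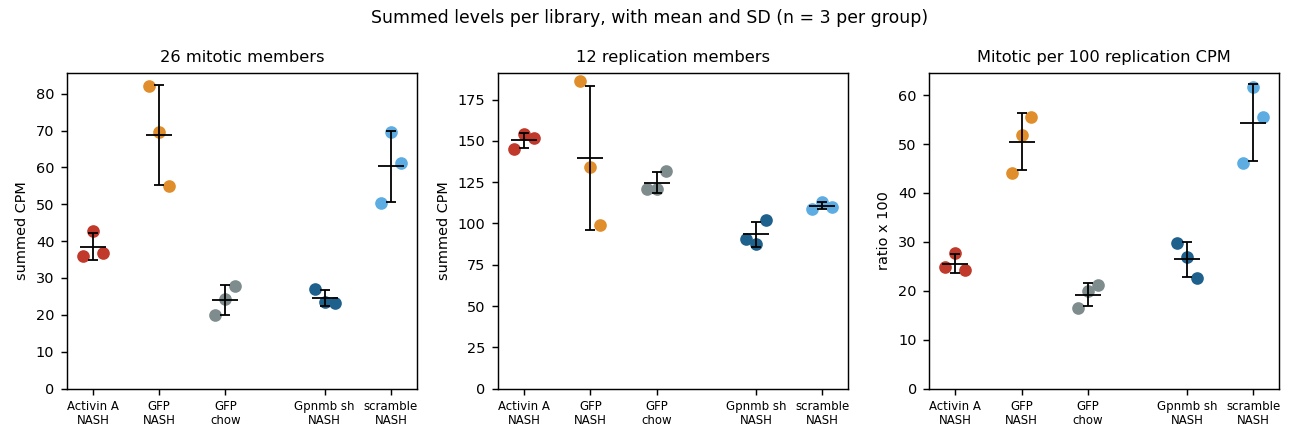
Summed CPM of the 26 mitotic genes (left) and of the 12 replication genes (middle), and mitotic CPM for each 100 CPM of replication transcripts (right), in each library (points) with the mean and SD of each group (lines, n = 3). The mitotic sum averaged 38.5 in Activin A NASH, 68.9 in GFP NASH and 24.0 in GFP chow livers, while the replication sum averaged 150, 140 and 125 in the same order.

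The NASH diet comparison set GFP NASH livers against GFP chow livers. Transcripts of 11 mitotic genes and of the helicase genes Mcm2, Mcm3, Mcm5 and Mcm6 were higher on the NASH diet, Tk1 was lower, and Pcna and the Rrm genes did not pass the test. By edgeR's quasi-likelihood test with Benjamini-Hochberg adjustment over 14388 genes, 15 of the 38 cell cycle genes tested were higher and 1 was lower at an adjusted p under 0.05, where 11.2% of all genes tested were higher and 5.82% were lower (17% in either direction). Of the mitotic genes, 11 of 24 tested were higher and none was lower, with a median log2 fold change of 1.57. Of the 12 replication genes 4 were higher and 1 was lower, with a median of 0.64 (0.98 for the 9 Mcm, Pcna and Rrm genes), and the median over all genes tested was -0.01. Aurkb and Bub1 were too low to be tested, and 14 of the 24 mitotic genes tested passed the filter on low counts only through the NASH libraries, so that the mitotic count and median are no support by themselves. Without any filter, all 26 mitotic genes had a median of 1.60 and 13 of them were called higher. The share of all genes called without a filter is not given here, so this count is no support either. All 12 replication genes passed the filter in all 6 libraries.

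The mitotic genes with the smallest p-values were Ect2, Top2a, Tpx2 and Plk1. Ect2, a factor required for cytokinesis, had 3.97, 4.97 and 3.77 CPM in GFP NASH livers, against 0.851, 0.982 and 1.24 CPM in GFP chow livers. Top2a had 9.45, 4.83 and 4.89 CPM in GFP NASH livers, against 0.79, 1.66 and 1.17 CPM in GFP chow livers. The NASH libraries lay above the chow libraries for both, with log2 fold changes of 2.08 ± 0.33 for Ect2 (SE; adjusted p = 0.00232, edgeR) and 2.45 ± 0.40 for Top2a (adjusted p = 0.0025, edgeR). Tpx2, a spindle assembly factor that activates Aurora A, had 3.52, 2.90 and 3.39 CPM in GFP NASH livers, against 0.669, 0.453 and 0.827 CPM in GFP chow livers. Its log2 fold change was 2.35 ± 0.39 (adjusted p = 0.00266, edgeR), again with no overlap. Plk1, a kinase of mitotic entry, was counted 92 times in the GFP NASH libraries and 3 times in the GFP chow libraries, a ratio of 22.0 after scaling (exact 95% interval 7.28 to 108, which covers counting error only; adjusted p = 0.00419, edgeR).

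Mki67 had 11.3, 9.42 and 8.28 CPM in GFP NASH livers, against 0.79, 3.62 and 2.69 CPM in GFP chow livers. The groups did not overlap, and the log2 fold change was 2.09 ± 0.42 (adjusted p = 0.00765, edgeR). Cdc20, Cdk1, Foxm1, Ube2c, Cenpf and Ccnb2 also rose, by log2 fold changes between 1.86 (Cdk1, the mitotic kinase itself) and 3.5 (Foxm1, a transcription factor of mitotic genes). The 13 mitotic genes tested that were not called, among them Aurka, Kif11, Prc1 and Birc5, had log2 fold changes between 0.24 and 1.63.

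Mcm3, a subunit of the MCM helicase, had 16.9, 9.13 and 8.61 CPM in GFP NASH livers, against 3.16, 3.62 and 4.83 CPM in GFP chow livers. Mcm5 had 10.2, 5.65 and 3.12 CPM in GFP NASH livers, against 1.94, 1.66 and 2.21 CPM in GFP chow livers. Both groups stood apart, with log2 fold changes of 1.62 ± 0.31 for Mcm3 (adjusted p = 0.0057, edgeR) and 1.74 ± 0.42 for Mcm5 (adjusted p = 0.0173, edgeR). Mcm6 had 22.2, 11 and 5.38 CPM in GFP NASH livers, against 4.62, 5.51 and 3.86 CPM in GFP chow livers, a log2 fold change of 1.5 ± 0.43 (adjusted p = 0.0379, edgeR). Mcm2 had 16.0, 8.6 and 5.11 CPM in GFP NASH livers, against 4.13, 5.29 and 3.52 CPM in GFP chow livers, a log2 fold change of 1.24 ± 0.38 (adjusted p = 0.0498, edgeR). For Mcm6 and Mcm2, GFP NASH library 3 lay within the span of the chow libraries.

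Pcna, the sliding clamp of DNA synthesis, had 31.2, 34.5 and 21.6 CPM in GFP NASH livers, against 23.6, 23.8 and 38.7 CPM in GFP chow livers. These values overlapped throughout, with a log2 fold change of 0.06 ± 0.23 (adjusted p = 0.9, edgeR). Rrm2, the regulated subunit of ribonucleotide reductase, had a log2 fold change of 0.98 ± 0.35 that missed the threshold (adjusted p = 0.0837, edgeR), and those of Mcm4, Mcm7, Rrm1, Tyms and Cdc45 lay between 0.14 and 0.93. Tk1, the thymidine kinase that salvages thymidine for DNA synthesis, went against the other replication genes: it had 13.8, 9.52 and 14.4 CPM in GFP NASH livers, against 42.4, 36.0 and 32.1 CPM in GFP chow livers. Tk1 fell in every pairing of libraries, by 1.52 ± 0.20 on the log2 scale (SE; adjusted p = 0.000883, edgeR). Tk1 overlaps Afmid on the opposite strand, and Afmid, a formamidase of tryptophan breakdown, also fell, by 0.96 ± 0.24 (adjusted p = 0.0219, edgeR). The kit kept strand, but no source used here says whether the counting used it, so reads of Tk1 and Afmid cannot be told apart with certainty.

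Stmn1, which encodes the microtubule-destabilising protein stathmin, had 12.3, 14.1 and 7.42 CPM in GFP NASH livers, against 6.14, 4 and 7.79 CPM in GFP chow livers (log2 fold change 0.95 ± 0.30, adjusted p = 0.0529, edgeR). Hmgb2, a chromatin protein of dividing cells, had 8.34, 7.53 and 4.52 CPM in GFP NASH livers, against 6.14, 4.23 and 5.58 CPM in GFP chow livers (log2 fold change 0.39 ± 0.28, adjusted p = 0.404, edgeR). Neither passed the test, and both overlapped between the groups. Single libraries weighed on the diet counts. Without GFP NASH library 1, 7 mitotic genes and 1 replication gene were called higher. Without chow library 1 or 2, 1 replication gene was called higher, and without GFP NASH library 2 or chow library 3 the number was 2. Tk1 was called lower in all 6 of these fits.

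**Figure D4:**
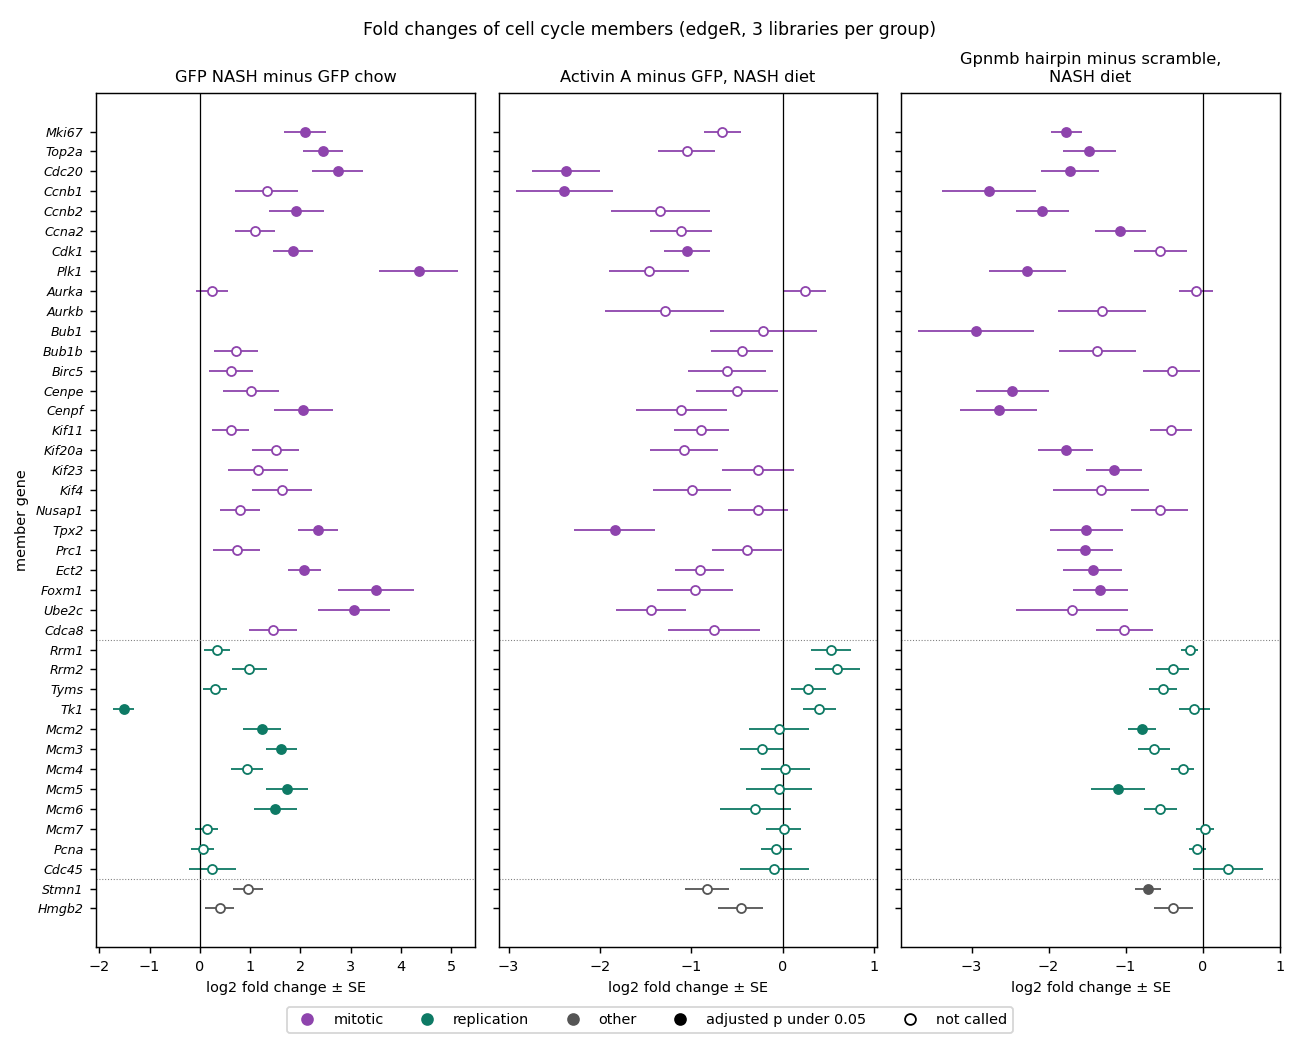
Log2 fold change with SE of each gene tested by edgeR in the 3 main comparisons, 3 libraries a group; mitotic genes are purple, replication genes green and the other 2 genes grey, and filled points have an adjusted p under 0.05. The median of the mitotic genes was 1.57 in the diet comparison, -0.98 in the Activin A comparison and -1.45 in the Gpnmb hairpin comparison, while that of the replication genes was 0.64, -0.01 and -0.33.

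The Activin A comparison set Activin A NASH livers against GFP NASH livers. Cdc20, Ccnb1, Tpx2 and Cdk1 fell under Activin A, and no replication gene passed the test in either direction. These 4 of 40 genes, all mitotic, were lower at an adjusted p under 0.05 by edgeR, where 3.86% of the 14598 genes tested were lower, and 0 were higher, where 1.66% of all genes were (5.52% in either direction). The median log2 fold change of the 26 mitotic genes was -0.98, with 15 lower and 0 higher at an unadjusted p under 0.05, and Aurka alone was positive, at 0.25. The median of the 12 replication genes was -0.01, with 0 lower and 3 higher at an unadjusted p under 0.05, and that of all genes tested was 0.00. Over all 14598 genes tested, 1714 were lower and 1213 were higher at an unadjusted p under 0.05. Mitotic genes called lower numbered 7 by DESeq2, 3 by limma-voom, 2 with all 15 libraries in the fit and 2 with the replicate number as a block. Of the mitotic genes, 16 passed the filter in all 6 libraries and 8 only through the GFP NASH libraries. Cdc20, Ccnb1 and Tpx2 were among those 8, whereas Cdk1 and all 12 replication genes passed in all 6 libraries. The mitotic calls, counts and median are therefore no support by themselves. Without a filter 6 mitotic genes were called lower, with a median of -0.97, but the share of all genes called without a filter is not given here.

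Cdc20 had 0.546, 1.20 and 0.604 CPM in Activin A NASH livers, against 5.04, 3.86 and 3.28 CPM in GFP NASH livers. Ccnb1, which encodes cyclin B1, the partner of CDK1, had 0.109, 0.228 and 0.242 CPM in Activin A NASH livers, against 0.936, 1.40 and 0.753 CPM in GFP NASH livers. The groups did not overlap for either, with log2 fold changes of -2.37 ± 0.37 for Cdc20 (SE; adjusted p = 0.00725, edgeR) and -2.39 ± 0.53 for Ccnb1 (adjusted p = 0.0321, edgeR). Ccnb1 rested on 10 counts in the 3 Activin A libraries and 64 in the 3 GFP NASH libraries. Tpx2 had 0.382, 0.799 and 1.57 CPM in Activin A NASH livers, against 3.52, 2.90 and 3.39 CPM in GFP NASH livers, a log2 fold change of -1.84 ± 0.44 (adjusted p = 0.0409, edgeR). Cdk1 had 1.86, 2.06 and 1.51 CPM in Activin A NASH livers, against 3.83, 3.77 and 3.66 CPM in GFP NASH livers, a log2 fold change of -1.05 ± 0.25 (adjusted p = 0.043, edgeR). For Cdk1 the GFP NASH libraries lay close together, and each Activin A library was below them.

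Mki67 and Top2a missed the threshold. Mki67 had 6.23, 7.37 and 4.77 CPM in Activin A NASH livers, against 11.3, 9.42 and 8.28 CPM in GFP NASH livers, a log2 fold change of -0.66 ± 0.20 (adjusted p = 0.0995, edgeR). Top2a had 3.17, 3.71 and 2.36 CPM in Activin A NASH livers, against 9.45, 4.83 and 4.89 CPM in GFP NASH livers, a log2 fold change of -1.05 ± 0.31 (adjusted p = 0.0882, edgeR). In both, every Activin A library was below every GFP NASH library. Stmn1 showed the same order of libraries, with 5.57, 6.34 and 7.13 CPM in Activin A NASH livers, against 12.3, 14.1 and 7.42 CPM in GFP NASH livers (log2 fold change -0.83 ± 0.24, adjusted p = 0.0737, edgeR). Hmgb2 had 4.59, 5.42 and 4.89 CPM in Activin A NASH livers, against 8.34, 7.53 and 4.52 CPM in GFP NASH livers, and overlapped (log2 fold change -0.46 ± 0.25, adjusted p = 0.353, edgeR).

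The replication genes nearest the threshold lay on the other side of 0. Rrm2 had 12, 12.8 and 12.7 CPM in Activin A NASH livers, against 10.7, 8.98 and 4.84 CPM in GFP NASH livers. Rrm1, the large subunit of the same enzyme, had 20.2, 19.5 and 22.8 CPM in Activin A NASH livers, against 19.4, 14.5 and 9.14 CPM in GFP NASH livers. Every Activin A library lay above every GFP NASH library for both, but the log2 fold changes of 0.60 ± 0.25 for Rrm2 (adjusted p = 0.204, edgeR) and 0.53 ± 0.22 for Rrm1 (adjusted p = 0.225, edgeR) did not pass the test. Tk1 had 16.8, 18.4 and 14.4 CPM in Activin A NASH livers, against 13.8, 9.52 and 14.4 CPM in GFP NASH livers (log2 fold change 0.40 ± 0.18, adjusted p = 0.247, edgeR). Tyms, thymidylate synthase, had 9.67, 8.22 and 8.88 CPM in Activin A NASH livers, against 7.76, 8.69 and 5.59 CPM in GFP NASH livers (log2 fold change 0.28 ± 0.19, adjusted p = 0.492, edgeR).

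Mcm2 had 10, 9.88 and 9.06 CPM in Activin A NASH livers, all within the span of 5.11 to 16.0 CPM of the GFP NASH libraries, and Pcna had 23.9, 29.9 and 29.3 CPM, within the span of 21.6 to 34.5 CPM. Their log2 fold changes were -0.04 ± 0.33 for Mcm2 (adjusted p = 0.967, edgeR) and -0.07 ± 0.17 for Pcna (adjusted p = 0.871, edgeR). The number of mitotic genes called lower was 1 without Activin A library 1 or 2 or without GFP NASH library 1 or 2, was 2 without Activin A library 3, and was 8 without GFP NASH library 3. Cdc20 was called lower in all 6 fits.

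**Figure D5:**
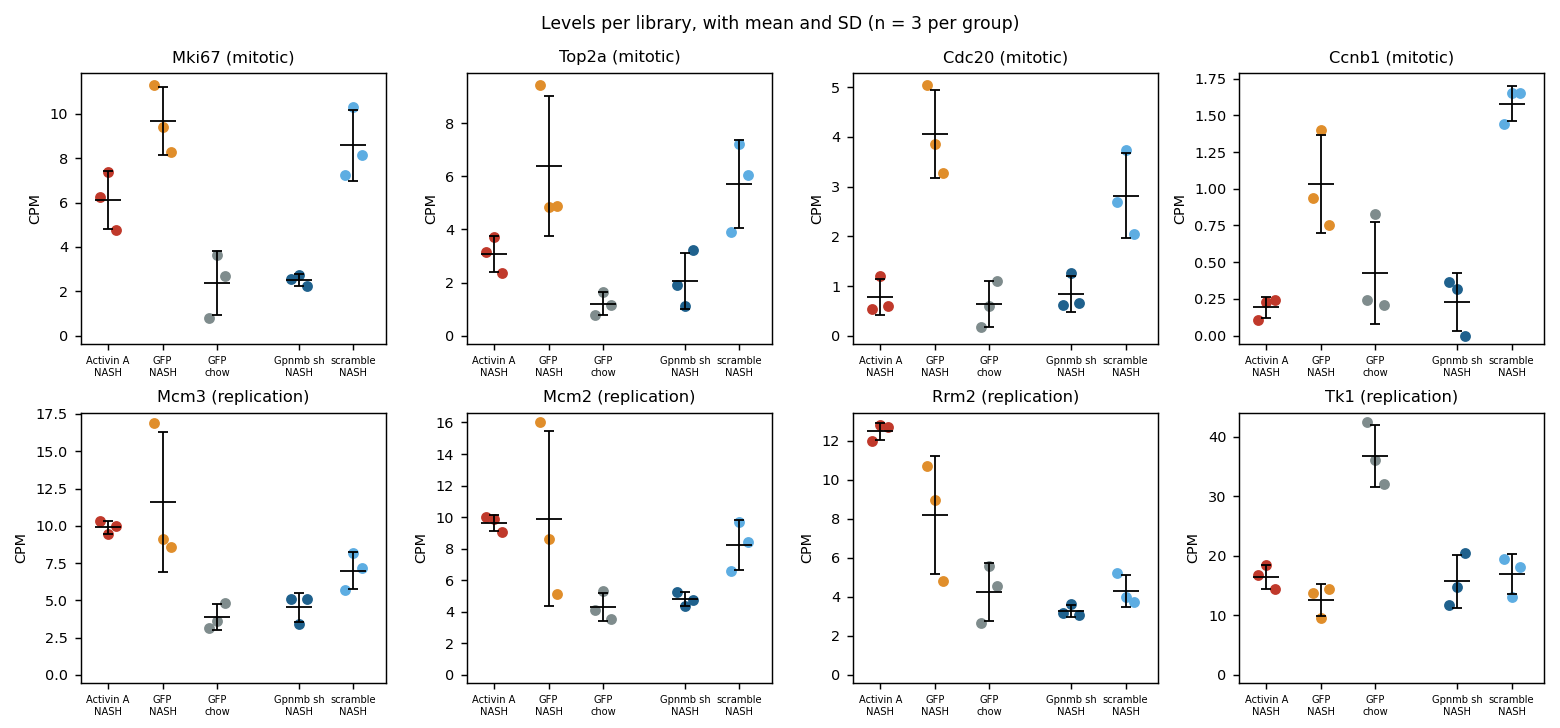
Levels in CPM of 4 mitotic genes (top) and 4 replication genes (bottom) in each library (points), with the mean and SD of each group (lines, n = 3); the left 3 groups are Activin A NASH, GFP NASH and GFP chow livers, and the right 2 are Gpnmb hairpin NASH and scramble NASH livers. Cdc20 lies at 0.546 to 1.20 CPM in Activin A NASH livers, within the span of the chow libraries or close above it, while Rrm2 lies at 12 to 12.8 CPM, above every other library.

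Activin A NASH livers were also set against GFP chow livers, in a fit of all 15 libraries, to place their level. Here the replication genes carried most calls: 8 of 12 were higher and Tk1 was lower, while 5 of 26 mitotic genes were higher. Mitotic genes had a median of 27 counts per library, against 144.5 for replication genes, so a call was harder to reach for them. In all 13 genes were higher and 1 was lower, where 11.8% of the 15665 genes tested were higher and 11.8% were lower. The median log2 fold change was 0.89 for the replication genes (1.16 for the 9 Mcm, Pcna and Rrm genes, of which 7 were called higher), 0.57 for the mitotic genes and -0.01 for all genes tested. Rrm2 had 12, 12.8 and 12.7 CPM in Activin A NASH livers, against 2.67, 5.59 and 4.55 CPM in GFP chow livers, a log2 fold change of 1.56 ± 0.27 (adjusted p = 0.00049, edgeR). Mcm3 had 10.3, 9.42 and 10 CPM in Activin A NASH livers, against 3.16, 3.62 and 4.83 CPM in GFP chow livers (log2 fold change 1.36 ± 0.26, adjusted p = 0.00117, edgeR). Mcm5, Mcm6, Mcm2, Mcm4, Rrm1 and Tyms rose by log2 fold changes between 0.54 and 1.67. The groups did not overlap for these genes, nor for Rrm2 and Mcm3. The counts of the diet comparison given above came from a fit of its own 6 libraries. With all 15 libraries in the fit, the diet comparison called 15 mitotic and 6 replication genes higher. The share of all genes called higher in that fit is not given here, so those counts are no support by themselves.

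The mitotic genes higher in Activin A NASH livers than in GFP chow livers were Mki67, Foxm1, Plk1, Top2a and Ect2. Mki67 had 6.23, 7.37 and 4.77 CPM in Activin A NASH livers, against 0.79, 3.62 and 2.69 CPM in GFP chow livers, a log2 fold change of 1.40 ± 0.34 (adjusted p = 0.00644, edgeR). Plk1 was counted 28 times in Activin A NASH livers, against 3 times in GFP chow livers, a scaled ratio of 7.88 (exact 95% interval 2.43 to 40.5, counting error only). Cdc20, Tpx2 and Cdk1 had log2 fold changes of 0.33 ± 0.54, 0.47 ± 0.55 and 0.77 ± 0.37 here, and Ccnb1 had -1.09 ± 0.78. None of these 4 passed the test, which does not show that they were at the chow level. Tk1 stayed below chow, at -1.15 ± 0.20 (adjusted p = 0.000494, edgeR). Without Activin A library 1 or 2, or without chow library 1, 3 mitotic genes were called higher. This comparison shares libraries with the diet and the Activin A comparison, so the 3 are not independent of each other.

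The Gpnmb hairpin comparison set Gpnmb hairpin NASH livers against scramble NASH livers and shares no library with the diet or the Activin A comparison. Transcripts of 16 mitotic genes, led by Mki67, Ccnb2, Cenpe and Cenpf, were lower with the hairpin, together with those of Mcm2, Mcm5 and Stmn1. By edgeR, 19 of 40 genes were lower at an adjusted p under 0.05, where 12% of the 14845 genes tested were lower, and 0 were higher, where 12.2% of all genes were. Lower calls fell on 16 of 26 mitotic genes, with a median log2 fold change of -1.45, and on 2 of 12 replication genes, with a median of -0.33, beside a median of 0.00 over all genes tested. At an unadjusted p under 0.05, 0 of the 40 genes were higher, where 2725 of the 14845 genes tested were. Of the mitotic genes, 12 passed the filter in all 6 libraries and 14 only through the scramble libraries, so that the mitotic count and median are no support by themselves. Without a filter 18 mitotic and 4 replication genes were called lower, with medians of -1.47 and -0.35. As the share of all genes called without a filter is not given here, these counts are no support either.

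Mki67 had 2.57, 2.74 and 2.23 CPM in Gpnmb hairpin NASH livers, against 7.23, 10.3 and 8.15 CPM in scramble NASH livers. The groups stood far apart, and the log2 fold change was -1.77 ± 0.20 (SE; adjusted p = 0.000238, edgeR). Ccnb2, which encodes cyclin B2, had 0.857, 0.686 and 0.436 CPM in Gpnmb hairpin NASH livers, against 2.35, 3.30 and 2.70 CPM in scramble NASH livers (log2 fold change -2.08 ± 0.34, adjusted p = 0.00182, edgeR). Cenpe, a kinetochore motor, had 0.367, 0.211 and 0.327 CPM in Gpnmb hairpin NASH livers, against 2.27, 1.78 and 1.02 CPM in scramble NASH livers (log2 fold change -2.47 ± 0.47, adjusted p = 0.00397, edgeR). Cenpf, another kinetochore protein, had 0.367, 0.105 and 0.381 CPM in Gpnmb hairpin NASH livers, against 1.13, 2.30 and 1.92 CPM in scramble NASH livers (log2 fold change -2.65 ± 0.50, adjusted p = 0.00405, edgeR). No library of the hairpin group reached the scramble group for these genes, although Cenpe and Cenpf rested on 16 and 15 counts over the 3 hairpin libraries.

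Top2a had 1.90, 1.11 and 3.21 CPM in Gpnmb hairpin NASH livers, against 3.92, 7.20 and 6.04 CPM in scramble NASH livers, a log2 fold change of -1.47 ± 0.35 (adjusted p = 0.0126, edgeR). Of the genes that fell under Activin A, Cdc20, Ccnb1 and Tpx2 fell here too, by 1.72, 2.78 and 1.51 on the log2 scale, and Cdk1 had -0.55 ± 0.34 (adjusted p = 0.271, edgeR). Plk1, Bub1, Prc1, Kif20a, Ect2, Foxm1, Kif23 and Ccna2 fell as well, by log2 fold changes between -2.94 (Bub1, a spindle checkpoint kinase) and -1.07 (Ccna2, cyclin A2). The mitotic genes not called, among them Aurka at -0.09 and Birc5 at -0.40, had log2 fold changes between -1.70 and -0.09. Cdc20 overlaps Elovl1 on the opposite strand, which also fell, by 0.49 ± 0.09 (adjusted p = 0.00273, edgeR).

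Mcm2 had 5.26, 4.38 and 4.74 CPM in Gpnmb hairpin NASH livers, against 6.58, 9.67 and 8.43 CPM in scramble NASH livers, a log2 fold change of -0.79 ± 0.18 (adjusted p = 0.0108, edgeR). Mcm5 had 1.22, 1.64 and 1.96 CPM in Gpnmb hairpin NASH livers, against 2.22, 5.12 and 3.02 CPM in scramble NASH livers, a log2 fold change of -1.10 ± 0.35 (adjusted p = 0.0411, edgeR). Neither overlapped between the groups. Mcm3 had 5.08, 3.43 and 5.12 CPM in Gpnmb hairpin NASH livers, against 5.67, 8.15 and 7.17 CPM in scramble NASH livers, and just missed the threshold (log2 fold change -0.63 ± 0.21, adjusted p = 0.0521, edgeR). Tyms had 3.55, 4.69 and 4.57 CPM in Gpnmb hairpin NASH livers, against 5.71, 5.94 and 6.70 CPM in scramble NASH livers (log2 fold change -0.52 ± 0.18, adjusted p = 0.0616, edgeR). Pcna had 22.2, 20.3 and 25.5 CPM in Gpnmb hairpin NASH livers, against 23.4, 25.5 and 22.3 CPM in scramble NASH livers, and overlapped (log2 fold change -0.07 ± 0.11, adjusted p = 0.666, edgeR).

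Stmn1 had 5.45, 4.64 and 6.43 CPM in Gpnmb hairpin NASH livers, against 8.41, 10.1 and 8.39 CPM in scramble NASH livers, a log2 fold change of -0.71 ± 0.17 (adjusted p = 0.0119, edgeR). Hmgb2 had 4.71, 4.27 and 2.40 CPM in Gpnmb hairpin NASH livers, against 4.88, 5.29 and 4.59 CPM in scramble NASH livers (log2 fold change -0.38 ± 0.25, adjusted p = 0.295, edgeR). Only the first of these passed the test, and Hmgb2 overlapped. Without scramble library 2, 10 mitotic and 0 replication genes were called lower, and without scramble library 3 the numbers were 9 and 0. Without hairpin library 2 or 3, 1 replication gene was called lower, and without scramble library 1 the number was 4.

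Whether the Activin A effect differed from the Gpnmb hairpin effect was tested directly, as an interaction in the fit of all 15 libraries. By edgeR, 0 of the 40 genes differed at an adjusted p under 0.05, where 4.04% of the 15665 genes tested did (1.9% higher and 2.14% lower). At an unadjusted p under 0.05, 6 of the 40 genes and 1212 of the 15665 genes tested had a larger value under Activin A, while DESeq2 called 0 of the 12 replication genes higher. The smallest adjusted p was that of Tyms, whose difference in log2 fold change was 0.79 ± 0.26 (adjusted p = 0.112, edgeR), followed by Bub1, Rrm2, Cenpe, Rrm1 and Mki67 among those 6. Without GFP NASH library 1, 2 replication genes were called higher. That none of the 40 passed with all libraries does not show that the treatments act alike on them. Scramble NASH livers and GFP NASH livers, the 2 NASH controls, were likewise set against each other: 0 genes were called by edgeR, where 0.741% of all genes tested were. At an unadjusted p under 0.05, 6 of the 40 genes and 1453 of the 15665 genes tested were lower in scramble NASH livers. DESeq2 called 1 replication gene lower. Rrm2 was nearest the threshold, at 5.23, 3.99 and 3.72 CPM in scramble NASH livers, against 10.7, 8.98 and 4.84 CPM in GFP NASH livers (log2 fold change -0.93 ± 0.27, adjusted p = 0.101, edgeR).

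Other genes of the cell cycle were read from lists grouped by step, to be read beside the shares over all genes: 11.2% higher and 5.82% lower on the diet, 1.66% and 3.86% under Activin A, and 12.2% and 12% with the hairpin. Counts and medians cover only the genes that passed the filter on low counts. A gene can pass the filter through its higher group alone, so these counts and medians are no support by themselves. At an unadjusted p under 0.05, 1213 of 14598 genes tested were higher and 1714 were lower under Activin A. Of 50 further kinetochore, spindle and cytokinesis genes, 37 were tested on the diet, 11 were higher and none was lower, with a median log2 fold change of 1.03. In Activin A NASH livers against GFP NASH livers 3 of 40 tested were lower and none was higher, with a median of -0.62. With the Gpnmb hairpin 19 of 40 were lower and 2 were higher, with a median of -1.27. Racgap1, the partner of Ect2 at the cleavage furrow, had 0.492, 0.971 and 0.846 CPM in Activin A NASH livers, 2.72, 2.70 and 3.82 CPM in GFP NASH livers and 0.425, 0.378 and 0.827 CPM in GFP chow livers. It rose by 2.52 ± 0.44 on the diet (adjusted p = 0.00365, edgeR) and fell by 2.00 ± 0.36 under Activin A (adjusted p = 0.0131, edgeR). Hmmr, a spindle protein, rose by 2.97 on the diet and fell by 1.66 under Activin A, and Dlgap5, a kinetochore fibre protein, fell by 2.53 under Activin A. Spc24, Cdca3 and Incenp led the hairpin comparison, with log2 fold changes of -1.49, -1.97 and -1.28.

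Of 49 further genes of origin licensing and the replication fork, few were called. On the diet 2 of 43 tested were higher and 1 was lower, with a median log2 fold change of 0.08. Under Activin A none of 46 was called in either direction by edgeR, 1 was higher and 0 were lower at an unadjusted p under 0.05, and the median was 0.05. With the hairpin 2 of 44 were higher and 1 was lower, with a median of -0.20. Uhrf1, which brings the maintenance DNA methyltransferase to new DNA, had 2.51, 2.63 and 1.75 CPM in Activin A NASH livers, 5.35, 2.46 and 0.968 CPM in GFP NASH livers and 0.182, 0.0755 and 0.414 CPM in GFP chow livers. It rose by 3.70 ± 0.76 on the diet (adjusted p = 0.00837, edgeR) and fell by 1.72 ± 0.48 with the hairpin (adjusted p = 0.0254, edgeR). Lig1, the ligase of Okazaki fragments, rose by 1.41 on the diet. Mcm10, which helps to activate the MCM helicase but is no part of its ring, fell instead, with 55.8, 49.1 and 60.4 CPM in GFP NASH livers, against 117, 120 and 148 CPM in GFP chow livers (log2 fold change -1.18 ± 0.15, adjusted p = 0.000772, edgeR). With the hairpin, Prim1 and Orc3 rose by 0.63 and 0.29.

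Among 22 tested genes of G1 cyclins, CDKs, E2F factors and pocket proteins, 3 were higher on the diet and none was lower. The median was 0.17. Ccnd1, which encodes cyclin D1, had 98.8, 89.6 and 55.3 CPM in GFP NASH livers, against 10.2, 13.0 and 7.86 CPM in GFP chow livers, a log2 fold change of 3.01 ± 0.26 (adjusted p = 0.00011, edgeR). Ccnd2 and Ccne1 rose by 1.00 and 1.96. None of the 22 was called under Activin A by edgeR, with 1 lower and 0 higher at an unadjusted p under 0.05, and Ccnd1 had 57.2, 76.6 and 68.5 CPM in Activin A NASH livers (log2 fold change -0.27 ± 0.20, adjusted p = 0.518, edgeR). With the hairpin 3 of 22 were higher and 3 lower, close to the shares of 12.2% and 12% over all genes. Ccnd1 had 23.0, 18 and 13.4 CPM in Gpnmb hairpin NASH livers, against 43.1, 82.2 and 64.5 CPM in scramble NASH livers, a log2 fold change of -1.81 ± 0.23 (adjusted p = 0.000469, edgeR), while Ccnd3 and E2f8 rose by 0.58 and 0.74. Reads of E2f8 and of its overlapping partner Gm2788, which also rose, by 0.73 ± 0.09 (adjusted p = 0.00034, edgeR), cannot be told apart with certainty.

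Among 15 tested CDK inhibitors and antiproliferative genes, 5 were higher on the diet and none was lower, with a median of 0.39. Under Activin A 1 was higher and 1 was lower, with a median of -0.33. With the hairpin 3 were higher and 4 lower, with a median of -0.37. Cdkn1a, which encodes the CDK inhibitor p21, had 115, 61.4 and 95.9 CPM in Activin A NASH livers, 42.2, 54.5 and 54.4 CPM in GFP NASH livers and 2.49, 3.02 and 20.1 CPM in GFP chow livers. It rose by 2.61 ± 0.62 on the diet (adjusted p = 0.0163, edgeR) and by a further 0.85 ± 0.20 under Activin A (adjusted p = 0.0432, edgeR), opposite in sign to the 4 mitotic genes called there. With the hairpin Cdkn1a had 34.8, 66.9 and 34.6 CPM in Gpnmb hairpin NASH livers, against 30.1, 26.3 and 29.8 CPM in scramble NASH livers (log2 fold change 0.66 ± 0.22, adjusted p = 0.0481, edgeR). Btg2, an antiproliferative gene, rose by 1.98 ± 0.24 on the diet and fell by 0.89 ± 0.14 under Activin A (adjusted p = 0.0077, edgeR). Gadd45b and Wee1 rose on the diet by 2.68 and 1.87. With the hairpin Wee1, the kinase that restrains CDK1, had 4.83, 3.53 and 3.92 CPM in Gpnmb hairpin NASH livers, against 17.9, 16.9 and 20.2 CPM in scramble NASH livers (log2 fold change -2.17 ± 0.15, adjusted p = 1.15e-05, edgeR), and Ccng2 and Btg1 rose by 1.18 and 0.75.

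Markers of several other cell types moved beside the mitotic genes. Their counts stand beside shares over all genes of 11.2% higher and 5.82% lower on the diet. These shares were 1.66% and 3.86% under Activin A, and 12.2% and 12% with the hairpin. All 13 macrophage markers were higher on the diet, 12 of 13 were lower under Activin A and 10 of 13 were lower with the Gpnmb hairpin. Their summed level ran from 269 to 294 CPM in Activin A NASH livers, from 680 to 878 CPM in GFP NASH livers and from 216 to 260 CPM in GFP chow livers. It ran from 324 to 382 CPM in Gpnmb hairpin NASH livers and from 551 to 794 CPM in scramble NASH livers, and no macrophage marker was at 0 in any group. Spp1 belongs to both the macrophage list and the biliary list, and is counted and summed in both. Of 8 biliary markers, 5 were higher on the diet, 3 were lower under Activin A and 0 were called with the hairpin by edgeR. With the hairpin 2 biliary markers were lower at an unadjusted p under 0.05, as were 2702 of all 14845 genes tested. Their summed level ran from 54.1 to 59.2 CPM in Activin A NASH livers, from 139 to 321 CPM in GFP NASH livers and from 56.0 to 75.8 CPM in GFP chow livers. It ran from 82.3 to 102 CPM in Gpnmb hairpin NASH livers and from 73.0 to 219 CPM in scramble NASH livers. Of 8 Kupffer cell markers, 4 were higher on the diet, 1 was lower under Activin A and 3 were lower with the hairpin. Their summed level ran from 148 to 211 CPM in Activin A NASH livers, from 229 to 347 CPM in GFP NASH livers and from 90.7 to 143 CPM in GFP chow livers. It ran from 181 to 254 CPM in Gpnmb hairpin NASH livers and from 332 to 346 CPM in scramble NASH livers. Of 8 sinusoidal endothelial markers, 3 were higher on the diet, 1 was higher and 1 lower under Activin A, and 4 were lower with the hairpin. Of 8 erythroid markers, 5 were tested on the diet: 2 were higher, Hbb-bs and Hba-a1, with log2 fold changes of 1.85 and 1.7. Alas2 was lower there, at -0.96, and 0 of 5 tested were called under Activin A by edgeR. With the hairpin the 4 globin genes among these markers, Hbb-bs, Hbb-bt, Hba-a1 and Hba-a2, fell by log2 fold changes between -2.2 and -1.39. Tfrc and Alas2 rose with the hairpin by 0.46 and 0.35. The summed erythroid level ran from 124 to 136 CPM in Gpnmb hairpin NASH livers and from 135 to 188 CPM in scramble NASH livers. Of 9 stellate cell markers, 7 were higher on the diet, 2 were lower under Activin A and 6 were lower with the hairpin. Of 11 hepatocyte markers, 4 were lower on the diet, 2 were higher under Activin A and 6 were higher with the hairpin. Of 11 T and NK cell markers, 2 of 6 tested were higher on the diet, 1 of 6 was lower under Activin A and 0 of 5 were called with the hairpin. No B or plasma cell marker was called in these comparisons. Both neutrophil markers tested on the diet were higher, and 0 were called under Activin A or with the hairpin. The part of these cell types in the results on cell cycle genes was not tested.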

How the data were processed

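RNA from whole mouse livers was sequenced as stranded mRNA libraries, per the labels' protocols, in 5 groups of 3. The authors deposited 3 tables of raw counts per gene, 1 for each comparison, with gene lengths and with their own log2 fold changes and adjusted p-values. The submitters' processing notes name the genome builds GRCm38 and mm10; no source used here gives the aligner, the counter or its strand setting. Of the deposited columns, 42 holding normalized values, FPKM or group means were not used.

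Counts were joined by gene identifier and mapped to groups by library name. Each comparison was fitted to its own 6 libraries with edgeR 4.0.16 in R 4.3.3: TMM scaling, a filter requiring about 10 counts in 3 libraries (filterByExpr), glmQLFit and glmQLFTest, two-sided, with Benjamini-Hochberg adjustment over all genes tested and a threshold of 0.05. The interaction, the comparison of Activin A NASH with chow livers and that of the 2 NASH controls came from 1 fit of all 15 libraries. SE is the absolute log2 fold change divided by the square root of F. CPM used TMM factors over all 15 libraries. The fits were tested on simulated data.

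Total counts of 15276879 to 23467867 per library bound the precision: genes with few counts carry wide errors, and intervals cover counting error only. Alternatives were DESeq2 1.42.0, limma-voom 3.58.1, other scalings, other filters, all libraries in 1 fit, the replicate number as a block, and each library left out. Replicate libraries differed by more than sampling noise.

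Genes given in full are, for each main comparison, the 4 mitotic and 4 replication genes with the smallest p, and Mki67, Top2a, Pcna, Mcm2, Stmn1 and Hmgb2; from each other cell cycle list, the 3 genes with the smallest p, and Ccnd1 and Cdkn1a. The members and all lists were chosen with earlier results of these data known. Promoter windows came from RefSeq on GRCm38.p6 and matched 33 of 40 genes. In the files 13 of the 40 genes overlap another gene, 12 of them on the opposite strand. Near-identical copies listed as genes of their own held few counts: Ccnb1-ps 35 and Pcna-ps2 46 over all 15 libraries.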

Additional observations from a re-analysis of the deposited data

Results flagged for a closer look

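The test of the difference between the Activin A effect and the Gpnmb hairpin effect called 3 of the other cell cycle genes described above. For Ccnd1 the Activin A log2 fold change minus the hairpin log2 fold change was 1.54 ± 0.35 (SE; adjusted p = 0.0172, edgeR), with effects of -0.27 under Activin A and -1.81 with the hairpin. Wee1 differed by 2.5 ± 0.40 (adjusted p = 0.0016, edgeR), with effects of 0.34 under Activin A and -2.17 with the hairpin. Ccng2, an atypical cyclin linked to cell cycle arrest, differed by -1.56 ± 0.22 (adjusted p = 0.00062, edgeR): it had 18.3, 12.3 and 14.9 CPM in Activin A NASH livers, against 18.1, 19.3 and 21.8 CPM in GFP NASH livers, and 35.9, 33.7 and 32.0 CPM in Gpnmb hairpin NASH livers, against 15.7, 15.2 and 14.0 CPM in scramble NASH livers.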

How the results depend on the processing

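No called value changed its sign under the alternatives run, but counts of calls moved. Diet: with a minimum count of 30, 6 mitotic genes were called higher; limma-voom called 1 replication gene higher; the mitotic median was 1.82 with library size alone and 1.88 with a minimum count of 30. Activin A: 7 mitotic genes were called lower by DESeq2, 2 with all 15 libraries in the fit and 2 with the replicate block. Hairpin: 10 mitotic genes were called lower with a minimum count of 30, and replication genes called lower numbered 1 by limma-voom, 4 with library size alone, 4 with no filter and 0 with all 15 libraries in the fit. Scramble against GFP NASH livers: 1 replication gene was lower by DESeq2 and 1 with no filter. With library size alone the replication sum was 108 CPM in chow and 120 CPM in scramble livers. The cause of these shifts was not tested.

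Same-numbered libraries did not deviate together (correlations of -0.13 to 0.0292), so no pairing was used; with the replicate block 9 mitotic and 3 replication genes were higher on the diet, and 13 mitotic and 2 replication genes were lower with the hairpin.

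Library size alone moved the median of all genes from -0.01 to 0.24 on the diet (86.8% of calls higher, against 65.7%), from 0.00 to -0.11 with the hairpin (29.0% against 50.3%) and from -0.01 to 0.21 for Activin A NASH against chow livers (78.0% against 50%).

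Leaving out 1 library at a time gave 7 to 13 mitotic and 1 to 5 replication genes higher and 1 to 1 lower on the diet, with medians of 1.39 to 1.92 and 0.39 to 0.84. Under Activin A it gave 1 to 8 mitotic genes lower, with medians of -1.09 to -0.71 (mitotic) and -0.19 to 0.40 (replication). With the hairpin it gave 9 to 18 mitotic and 0 to 4 replication genes lower, with medians of -1.66 to -1.25 and -0.36 to -0.26. The interaction gave 0 to 2 replication genes, Activin A NASH against chow livers 3 to 7 mitotic and 6 to 7 replication genes higher and 1 to 1 lower, and the 2 controls 0 to 4. Values that crossed 0 belonged to genes that were not called: Mcm2 under Activin A was 0.08 by limma-voom, 0.09 with the replicate block and -0.35 to 0.49 without single libraries, and Pcna was -0.10 to 0.32 on the diet, -0.24 to 0.07 under Activin A and -0.17 to 0.00 with the hairpin.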

Other observations

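Cdkn3, a phosphatase that acts on CDKs, was counted 1 time in Gpnmb hairpin NASH livers and 89 times in scramble NASH livers, a scaled ratio of 0.015 (exact 95% interval 0.000375 to 0.0856, counting error only). It was singled out after its values were seen.

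The authors' deposited table of each comparison was read at its own adjusted p-value under 0.05. The shares of all genes called there are not given here, so these counts are no support by themselves. On the diet it called 12 mitotic and 4 replication genes higher and 1 replication gene lower. Aurkb, too low to be tested here, was among the 12. Under Activin A the authors' deposited table called 6 mitotic genes lower, among them Top2a and Ube2c, which missed the threshold here. With the Gpnmb hairpin it called 15 mitotic and 2 replication genes lower. The authors also called Stmn1 higher on the diet and lower in the other comparisons, whereas here it passed only with the hairpin.

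Btg2 differed between the 2 NASH controls, with 18, 23.8 and 19.9 CPM in scramble NASH livers, against 65, 64.0 and 53.1 CPM in GFP NASH livers (log2 fold change -1.56 ± 0.22, adjusted p = 0.00341, edgeR).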
